A study of Mus musculus with 6 samples.

Results

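Wnt ligands, Frizzled receptors, the co-receptors Lrp5 and Lrp6, the receptors Lgr4, Lgr5, Ror1 and Ror2, the secreted antagonists of the SFRP and DKK families and the feedback scaffold Axin2 were examined in GC-1spg cells. Members were taken by gene symbol alone, which gave 44 of the 22298 genes in the mRNA table: 19 ligands, 10 Frizzled receptors, 6 co-receptors and LGR or ROR receptors, 8 antagonists and Axin2. GC-1spg is an immortalised mouse line kept as a model of type B spermatogonia, the mitotic germ cells of the testis that are committed to meiosis. All libraries came from this line, grown in DMEM with 10% FBS and transfected with siRNA at 60% density, with total RNA taken 48 h later. The 3 si-NC libraries (control) received a control siRNA and the 3 si-METTL3 libraries (knockdown) an siRNA against Mettl3, whose product is the catalytic subunit that writes N6-methyladenosine (m6A) into mRNA. The labels also tag the si-NC libraries as untreated, although their protocol has them transfected with a control siRNA, so what the controls received rests on the protocol and the sample names. RNA was measured, but neither m6A nor protein.

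Wnt proteins are secreted lipid-modified ligands that bind Frizzled receptors together with Lrp5 or Lrp6, which stops the destruction of beta-catenin and lets it act with TCF and LEF factors on target genes. Lgr4 and Lgr5 bind R-spondins and so keep Frizzled proteins at the surface, Ror1 and Ror2 are tyrosine kinase-like receptors used mainly by Wnt5a in beta-catenin-independent signalling, SFRP proteins bind Wnts and DKK proteins bind Lrp5 and Lrp6. In the testis, Wnt signals are known from both spermatogonia and the somatic cells around them, and Wnt4 is best known for its part in ovarian development.

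The mRNA counts summed to between 22146057 and 37698956 per library. Mettl3 had 606, 578 and 683 counts in control cells and 142, 134 and 136 after knockdown (log2 fold change -1.79, SE 0.14, edgeR adjusted p = 0.000579). Of 19 markers of undifferentiated spermatogonia 8 were tested, 2 were higher (Bcl6b at 0.97, edgeR adjusted p = 0.00458, and Gfra1 at 0.65, 0.0389) and none lower, and the list summed to 36.8 to 43.3 CPM (counts scaled to a fixed library size) in control cells and 47.0 to 51.0 after knockdown. Not all of that list rose. Etv5 had lower CPM in every si-METTL3 library than in any si-NC library (-0.42, edgeR adjusted p = 0.0529), and Id4 was also below 0 (-0.16, 0.64). Etv5 (365 to 924 counts) and Bcl6b (255 to 658) had the most reads, Ddx4 had 1 to 7 counts per library, Dazl 0 or 1, and Nanos2, Pou5f1, Sall4, Neurog3 and Utf1 none. Of 7 markers of differentiating spermatogonia 2 were tested and neither passed, and their sum, 135 to 144 CPM in control cells and 88.5 to 123 after knockdown, was mostly Ccnd2. Apart from Ccnd2 and Kit (14 to 55 counts per library) they were barely read. Sohlh1 had 0 counts, Dmrt1 0 or 1, Stra8 and Dmrtb1 0 to 3 and Sohlh2 1 to 12 per library. Of 15 Sertoli, Leydig and peritubular markers 9 were tested, of which Wt1 (0.61, edgeR adjusted p = 0.00277) and Acta2 (0.70, 0.0235) rose and Gata4 (-0.41, 0.0299) and Gdnf (-0.55, 0.00601) fell. That list summed to 312 to 327 CPM in control cells and 380 to 394 after knockdown. Wt1 had 4837 to 7693 counts per library, Gdnf 1068 to 2739 and Gata4 648 to 1579, and Fshr, Hsd3b1 and Insl3 had 0. With Ddx4, Dazl, Sall4, Sohlh1 and Stra8 at or near 0, these markers do not bear out a spermatogonial identity. The cells are named here by their label only. Of 19 lung marker genes 17 were tested and none passed, but their summed CPM came to 12.02 and 10.7 for si-NC replicates 1 and 2, 86.9 for si-NC replicate 3 and 88.1 to 131 after knockdown, and 9 blood markers followed the same order, from 0.700 and 1.08 through 12.6 to between 13.8 and 20.4 CPM. Brain markers summed to 83.9 to 110 CPM in si-NC and 122 to 130 in si-METTL3, with 2 of 14 tested genes (Slc1a2 and Syt1) called higher. Mbp, at 1181 to 2306 counts per library, weighed most in that sum, which hides a split between the controls. Camk2a had 0, 83 and 74 counts in si-NC replicates 1, 2 and 3 and 105 to 150 after knockdown. Snap25 had 0, 41 and 45 and then 38 to 55, and Gad1 and Nefl were also at 0 in si-NC replicate 1 alone. Macrophage and endothelial markers, none of them called, summed to 28.9 to 40.6 CPM in si-NC and 42.0 to 49.2 in si-METTL3. Beside these counts of called markers, 8.67% of all 13082 tested genes were higher and 10.2% lower at an edgeR adjusted p under 0.05. The marker calls therefore describe single genes rather than cell types. The part of these markers in the results was not tested. The labels do not say that replicates were separate cultures, so p-values cover only the spread between these samples, and that may be technical. In bulk RNA, fewer cells of a type and less RNA per cell cannot be told apart.

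Receptors made up most of the Wnt family RNA in these cells. On the deposited FPKM scale, which divides by transcript length, 21 of the 44 genes had a mean of 1 or more over the 6 libraries: 7 ligands, 7 Frizzled receptors, 5 of the 6 co-receptor, LGR and ROR genes, 1 antagonist and Axin2. Lrp5 (18.04 FPKM in si-NC and 22.1 in si-METTL3) and Fzd6 (17.4 and 18.8) had the highest levels, followed by Fzd7 (8.95 and 13.9) and Lgr4 (8.11 and 13.3). The most abundant ligands in si-NC cells were Wnt9a (4.87 FPKM), Wnt10a (4.01), Wnt11 (3.68) and Wnt5a (3.43), and Wnt4 stood at 1.49. Wnt4 rose to 3.40 FPKM in si-METTL3 cells, where Wnt11 stood at 4.34, Wnt5a at 4.31, Wnt10a at 3.98 and Wnt9a at 3.85.

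**Figure D1:**
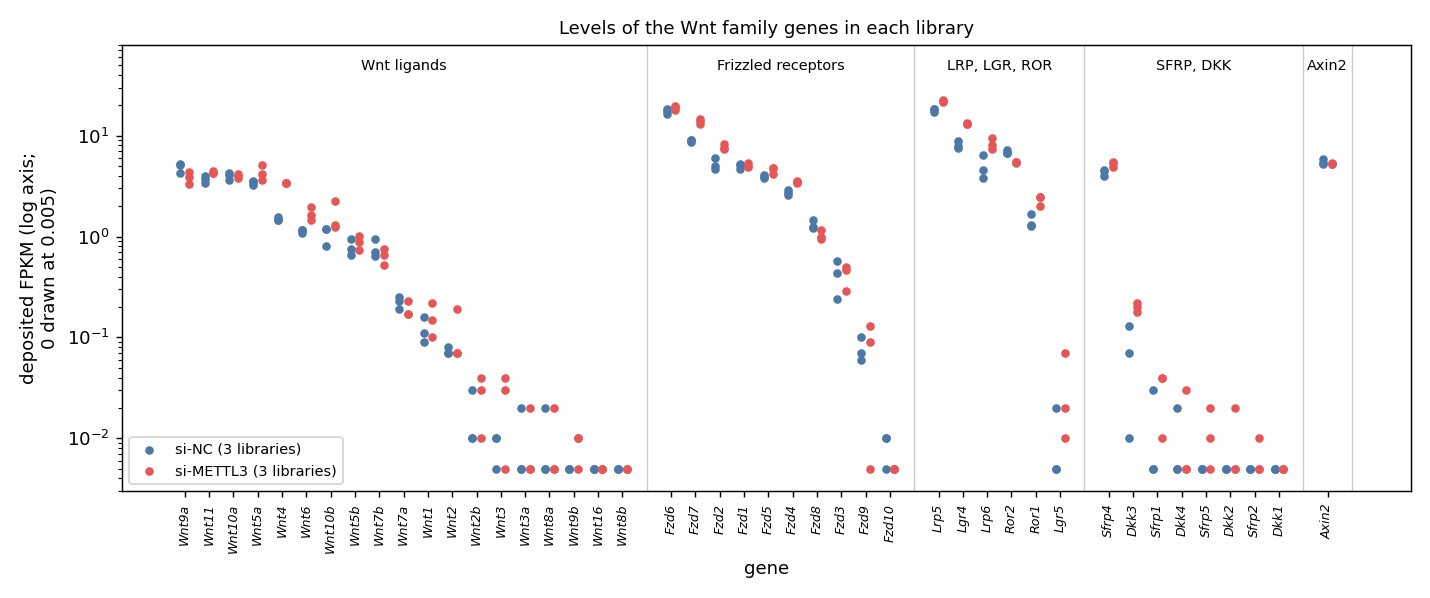
Deposited FPKM (log axis, with 0 drawn at 0.005) of the 44 Wnt family genes, 1 point per library, with the 3 si-NC libraries in blue and the 3 si-METTL3 libraries in red. Lrp5 and Fzd6 sit highest, most SFRP and DKK genes sit near the bottom, and the Wnt4 groups stand clearly apart.

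The remaining genes were barely read. The filter on low counts left 27 of the 44 genes for testing, and among the other 17 the highest total over all 6 libraries was 46 counts, for Wnt2. Wnt16, Wnt8b and Dkk1 had 0 counts in every library, which allows up to 0.0796 to 0.135 CPM per library (3 counts, covering counting error only). Wnt2b, Wnt3, Wnt3a, Wnt8a, Wnt9b, Fzd9, Fzd10, Lgr5, Sfrp1, Sfrp2, Sfrp5, Dkk2 and Dkk4 had between 1 and 39 counts in all. Their levels could not be compared between the groups at this depth.

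After Mettl3 knockdown, 8 of the 27 tested genes were higher and 1 was lower at an edgeR adjusted p under 0.05. Among all 13082 tested genes 8.67% were higher and 10.2% lower. The 8 higher genes were the ligand Wnt4, the receptors Fzd2, Fzd4 and Fzd7, the co-receptors Lrp5 and Lrp6, and the receptors Lgr4 and Ror1, and the lower gene was Ror2. Of the 13 tested receptor and co-receptor genes 7 rose and 1 fell, of 11 tested ligands 1 rose, and neither of the 2 tested antagonists nor Axin2 passed. Wnt4 was the only member to change more than 2-fold with an adjusted p under 0.05. The median log2 fold change of the 27 genes was 0.27, beside 0.03 over all tested genes, and 20 were above 0. In the authors' deposited table the same 9 genes have an adjusted p under 0.05, 8 higher and 1 lower. The 3 si-NC libraries did not overlap with the 3 si-METTL3 libraries in CPM for 15 higher and 3 lower members, beside 20.2% and 21.3% of all tested genes.

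**Figure D2:**
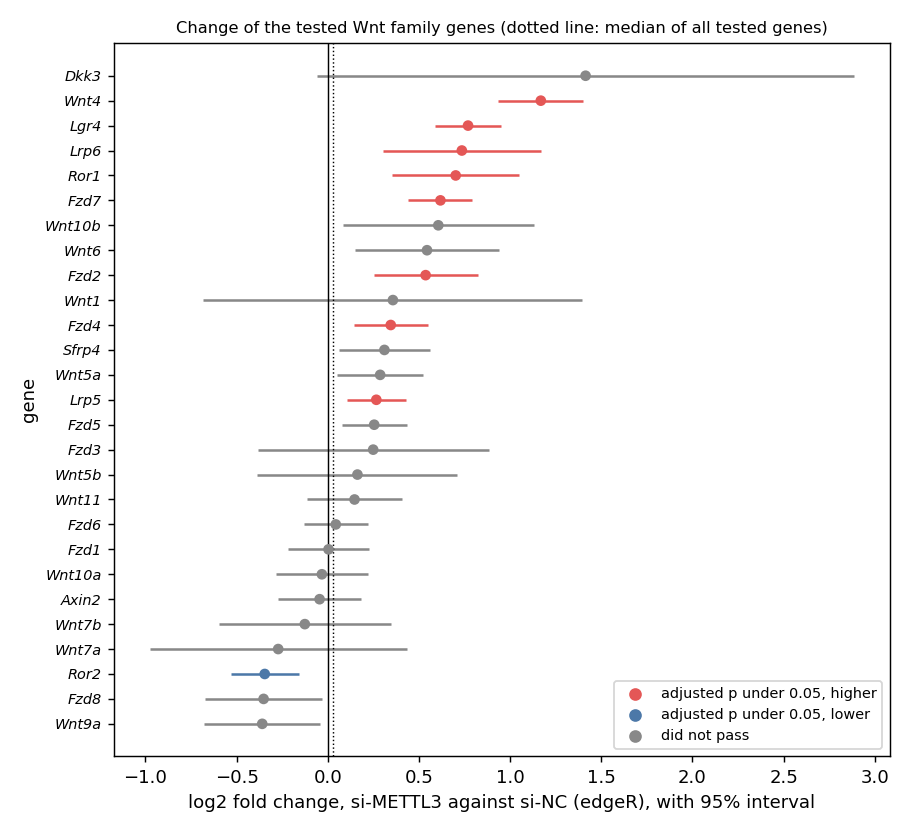
Log2 fold change of each of the 27 tested Wnt family genes, si-METTL3 against si-NC, with the 95% interval of the edgeR fit. Wnt4 stands at 1.17 with a narrow interval, Dkk3 at 1.41 with an interval that crosses 0, and Ror2 at -0.35 is the lower gene that passed.

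METTL3 writes m6A mainly where an adenosine is flanked as in the letters GGACT, so the last such letters in the coding sequence of each changed gene are shown to place them (GENCODE M21, build GRCm38, sense strand, every GGACT in capitals, coordinates of the last one, 12 flanking bases where the coding sequence goes on). Whether any of these adenosines is methylated was not measured.
Wnt4, chr4:137296554-137296558 on the plus strand, exon 5 of 5: ggagcctagcccGGACTtctgtgagcagg
Fzd4, chr7:89407740-89407744 on the plus strand, exon 2 of 2: tttttggcagccGGACTcaagtggggtca
Lgr4, chr2:110003454-110003458 on the plus strand, exon 12 of 18: gctgcGGACTctGGACTtatcttataacg
Lrp5, chr19:3585038-3585042 on the minus strand, exon 23 of 23: gtccccctgcacGGACTcgtcc
Lrp6, chr6:134450794-134450798 on the minus strand, exon 23 of 23: ctccccctgcacGGACTcctcc
Ror1, chr4:100442194-100442198 on the plus strand, exon 9 of 9: gtctttgcttggGGACTcccatatccatg
Ror2, chr13:53111281-53111285 on the minus strand, exon 9 of 9: cctggagcccccGGACTtcgtgcacgtgg
The Lrp5 and Lrp6 windows end with the coding sequence, and their last GGACT lies at the same distance from its end, in the final exon of each gene. The coding sequences of Fzd7 and Fzd2 hold no GGACT.

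Over whole transcripts, read on the sense strand, GGACT came at a median of 1.215 per kb in the 9 changed genes, 1.165 in the 18 tested members that did not pass and 1.047 in the 13014 tested genes with a coding transcript. Among the 9, Lrp5 held the most (3.29 per kb) and Lrp6 2.03, while Fzd7, one of the clearest rises, held the fewest (0.221 per kb). The changed genes thus held both ends of the range among the tested members, 0.221 to 3.29 per kb.

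The siRNA sequence in the labels, printed there for both the METTL3 and the control siRNA, is shown with the site that the antisense seed would pair with in capitals.
siRNA: gctaccgtatgGGACATTa
Its full length matched the Mettl3 transcript once. The letters GGACATT occurred in the 3′ UTR of none of the 9 changed genes, in 3 of the 18 tested members that did not pass and in 11% of all tested genes.

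Upstream sequence was compared because several receptors moved together. The RefSeq promoter table (GRCm38.p6) matched 29 members, 6 of them changed. The 250 bases before each RefSeq start were searched. These starts can differ from the GENCODE gene positions given here. The Wnt4 window runs into its GENCODE gene, and the Fzd7 window stops short of its gene. The GC box letters GGGCGG, on either strand, lay in 5 of those 6 (Fzd4, Fzd7, Ror1, Ror2 and Wnt4). They also lay in 8 of 10 matched members that were tested and did not pass, and in 32.7% of all 32851 promoters. The TCF and LEF core CTTTGA, on either strand, lay in 1 of the 6 (Ror1), in 3 of those 10 and in 13.8% of all. TATAAA, on either strand, lay in none of the 6, 2 of the 10 and 12.4% of all. A member counted once if any of its promoters matched, whereas the shares of all are per single promoter, so the 2 are not on the same footing. Wnt11 and Wnt5b, for example, had more than 1 promoter and the TCF and LEF core in only 1. None of the 3 motifs holds another, and a match is a description of the letters alone. Fzd7 and Lgr4, which rose, and Ror2, which fell, are shown with matches in capitals.
Fzd7, chr1:59481897-59482146 on the plus strand: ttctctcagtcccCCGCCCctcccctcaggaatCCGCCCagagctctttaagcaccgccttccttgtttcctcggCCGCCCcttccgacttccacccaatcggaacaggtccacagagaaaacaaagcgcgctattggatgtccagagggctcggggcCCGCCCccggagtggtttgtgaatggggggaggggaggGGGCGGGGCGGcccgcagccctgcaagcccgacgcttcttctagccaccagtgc
Lgr4, chr2:109917397-109917646 on the plus strand: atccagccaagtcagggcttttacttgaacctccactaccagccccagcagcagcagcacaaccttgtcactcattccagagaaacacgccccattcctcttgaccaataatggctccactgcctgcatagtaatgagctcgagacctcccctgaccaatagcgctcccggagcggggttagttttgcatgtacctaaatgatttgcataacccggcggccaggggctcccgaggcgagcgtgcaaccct
Ror2, chr13:53286125-53286374 on the minus strand: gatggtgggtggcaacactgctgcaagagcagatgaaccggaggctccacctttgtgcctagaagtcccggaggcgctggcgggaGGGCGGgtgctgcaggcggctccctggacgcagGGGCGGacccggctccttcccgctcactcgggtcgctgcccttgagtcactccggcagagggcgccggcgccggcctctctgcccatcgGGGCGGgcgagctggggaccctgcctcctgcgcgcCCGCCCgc
Fzd7 and Ror2, which moved in opposite directions, both carried several GC boxes, and Lgr4 carried no match to any of the 3 motifs.

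Among the ligands, Wnt4 (chr4:137277489-137299726, plus strand, GRCm38) rose the most. Its CPM were 7.44, 7.33 and 8.20 in control cells and 17.0, 17.0 and 17.6 after knockdown. The means were 7.66 ± 0.474 and 17.2 ± 0.370 (SD, n = 3), 2.25-fold higher after knockdown or 1.17 on the log2 scale (SE 0.10, edgeR adjusted p = 0.000857). All 3 si-METTL3 libraries lay far above all 3 si-NC libraries. The si-NC replicate 3, which carried lung markers near the si-METTL3 level, had 8.20 CPM of Wnt4, and without it the log2 fold change was 1.19. The controls left in that fit carried few lung markers and every si-METTL3 library carried more, so it cannot separate the markers from the knockdown. The part of the markers in the Wnt4 rise was not tested. Leaving out any 1 library kept the Wnt4 log2 fold change between 1.14 and 1.19.

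No other ligand passed. Wnt6 (log2 fold change 0.54, interval 0.15 to 0.94, adjusted p = 0.0615) and Wnt10b (0.61, 0.08 to 1.13, adjusted p = 0.0997) had higher CPM in every si-METTL3 library than in any si-NC library. So did Wnt5a, the main ligand of the ROR receptors, with 17.5, 16.4 and 16.5 CPM in control cells and 18.7, 20.5 and 22.3 after knockdown (0.29, adjusted p = 0.0865), and Wnt11 (0.15, adjusted p = 0.377). Wnt9a, the most abundant ligand in si-NC cells, went the other way: its CPM were 21.3, 17.2 and 20.9 in control cells and 17.2, 13.4 and 15.7 after knockdown. Its log2 fold change of -0.36 (SE 0.13) had an edgeR adjusted p of 0.105, which became 0.0324 without si-NC replicate 2. Wnt10a (-0.03, interval -0.29 to 0.22), Wnt5b (0.16, -0.39 to 0.71), Wnt7b (-0.13, -0.60 to 0.34), Wnt7a (-0.27, -0.98 to 0.43) and Wnt1 (0.36, -0.68 to 1.4) overlapped between the groups.

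Of the Frizzled receptors, Fzd7 (chr1:59482424-59486955, plus strand) rose most firmly. It had 50.2, 47.7 and 50.9 CPM in control cells and 79.9, 76.5 and 72.0 after knockdown, so the groups lay well apart. The means were 49.6 ± 1.67 and 76.1 ± 3.99 (SD, n = 3), with a log2 change of 0.62 (SE 0.07, 1.53-fold, edgeR adjusted p = 0.00335). Leaving out 1 library gave 0.56 to 0.65, all past the threshold. The si-NC replicate 3, which carried more lung and blood markers than the other controls, had the highest control value. The part of those markers in the Fzd7 rise was not tested.

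Fzd2 (chr11:102604396-102608058, plus strand), a close relative of Fzd7, had 21.3, 22.2 and 27.6 CPM in control cells and 36.4, 32.8 and 33.8 after knockdown. The log2 change came to 0.54 (SE 0.12, 1.45-fold, edgeR adjusted p = 0.0251), and si-NC replicate 3 was the highest control. It no longer passed once si-NC replicate 1 was left out (adjusted p = 0.0989), nor without knockdown replicate 1 (0.0761), 2 (0.0797) or 3 (0.086). Fzd4 (chr7:89404355-89413134, plus strand), a receptor for Norrin as well as Wnts, had 22.2, 23.6 and 21.4 CPM in control cells and 27.5, 28.3 and 29.5 after knockdown. Its rise was small, at 0.35 on the log2 scale (SE 0.09, 1.27-fold, edgeR adjusted p = 0.0332). It passed without si-NC replicate 2 (adjusted p = 0.0163) and with no other library left out (adjusted p 0.0873 to 0.133).

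The other tested Frizzled genes did not pass. Fzd5 had 27.2, 27.7 and 27.6 CPM in control cells and 33.3, 32.2 and 33.0 after knockdown (0.25, edgeR adjusted p = 0.0574), which reached 0.0395 without si-NC replicate 2. Fzd8 had lower CPM in every si-METTL3 library (-0.35, interval -0.67 to -0.03, adjusted p = 0.114). Fzd6, the most abundant Frizzled receptor, had 75.0, 67.7 and 66.8 CPM against 72.8, 70.3 and 72.9, with an interval of the log2 fold change from -0.13 to 0.22. Fzd1 (interval -0.22 to 0.23) and Fzd3 (-0.39 to 0.88) also overlapped. The summed FPKM of the 10 Frizzled genes went from 45.2 ± 0.315 to 55.2 ± 2.47 (SD, n = 3).

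All 5 tested co-receptor, LGR and ROR genes changed, 4 upwards and 1 downwards. Lgr4 (chr2:109917647-110014257, plus strand), the R-spondin receptor, had 44.98, 46.9 and 43.2 CPM in control cells and 73.6, 75.4 and 81.2 after knockdown. The means were 45.04 ± 1.86 and 76.8 ± 3.96 (SD, n = 3), with a log2 change of 0.77 (SE 0.08, 1.70-fold, edgeR adjusted p = 0.00172). The groups were far apart, the lowest value was in si-NC replicate 3, and leaving out 1 library gave 0.71 to 0.80. The part of the lung and blood markers in the Lgr4 rise was not tested.

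Lrp6 (chr6:134446476-134566965, minus strand) had 51.4, 67.3 and 40.8 CPM in control cells and 78.4, 87.6 and 99.3 after knockdown. The groups did not overlap, but the si-NC libraries were spread widely, with replicate 2 the highest. The log2 fold change was 0.74 (SE 0.18, 1.66-fold, edgeR adjusted p = 0.0339). It was 0.94 (adjusted p = 0.00544) without si-NC replicate 2, and with any other library left out the call was lost (adjusted p 0.0612 to 0.124), down to a log2 fold change of 0.55 without si-NC replicate 3. Lrp5 (chr19:3584828-3686564, minus strand), the most abundant gene of the family, had 116, 106 and 117 CPM in control cells and 136, 137 and 135 after knockdown. The log2 change came to 0.27 (SE 0.07, 1.20-fold, edgeR adjusted p = 0.0361), and it too passed without si-NC replicate 2 (adjusted p = 0.0198) and with no other library left out (0.0796 to 0.132).

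The ROR receptors went in opposite directions. Ror1 (chr4:100095791-100444765, plus strand) had 9.01, 11.5 and 9.18 CPM in control cells and 13.8, 17.2 and 17.4 after knockdown, with a log2 change of 0.70 (SE 0.15, 1.63-fold, edgeR adjusted p = 0.0207). Ror2 (chr13:53109312-53286124, minus strand) had 34.97, 32.5 and 33.2 CPM in control cells and 26.2, 26.6 and 26.4 after knockdown, and fell by 0.35 on the log2 scale (SE 0.08, edgeR adjusted p = 0.026). Every si-METTL3 library lay above every si-NC library for Ror1 and below for Ror2. On the FPKM scale Ror2 remained the more abundant of the pair, at 5.48 in si-METTL3, where Ror1 stood at 2.31. Ror1 did not pass when control replicate 1 (adjusted p = 0.088) or 3 (0.0606), or knockdown replicate 2 (0.0866) or 3 (0.0849), was left out. The call of Ror2 was lost without si-NC replicate 1 or any 1 of the 3 si-METTL3 libraries (0.0715 to 0.115). Ror1 overlaps the predicted genes Gm12706 on the opposite strand and Gm12701 on its own, and the sources used here do not say how the authors divided shared reads.

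**Figure D3:**
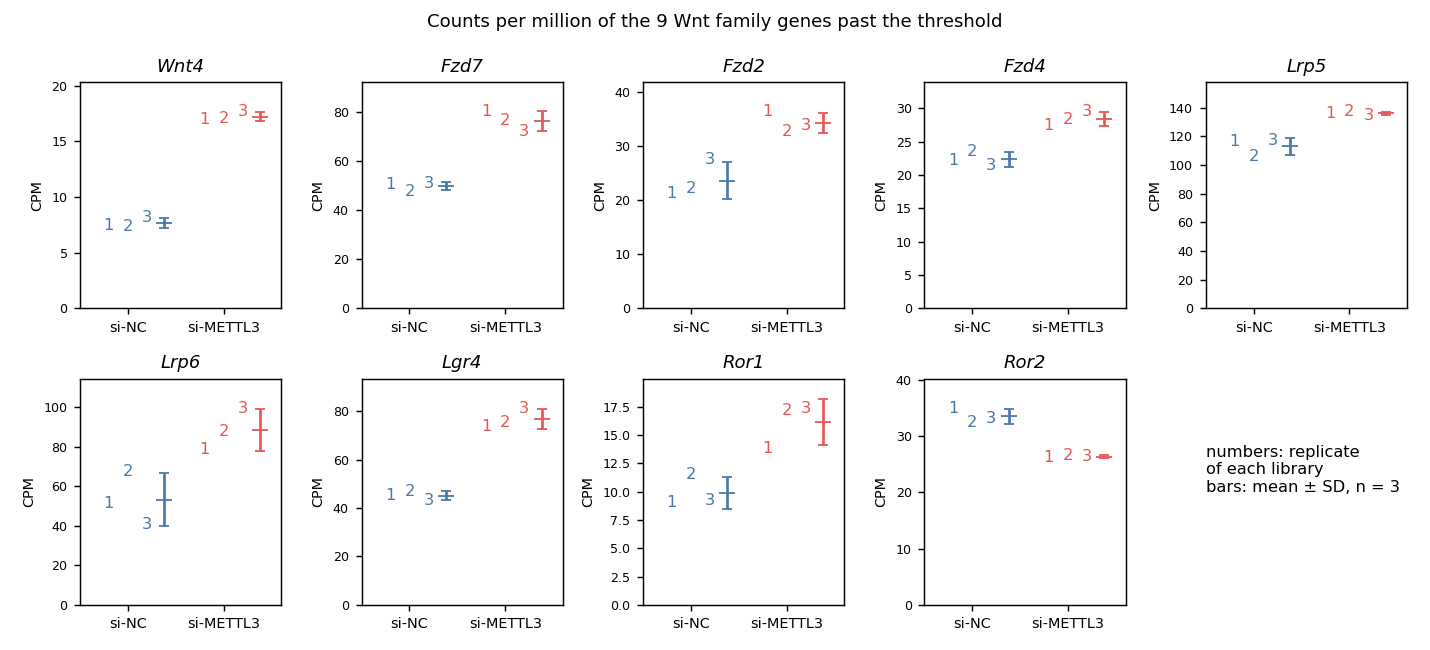
CPM of the 9 changed Wnt family genes in each library (linear axes from 0), drawn as the replicate number, with mean and SD bars (n = 3). The groups of Wnt4, Fzd7 and Lgr4 stand far apart, whereas si-NC replicate 2 of Lrp6, at 67.3, comes near si-METTL3 replicate 1, at 78.4.

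Together the 16 receptor and co-receptor genes summed to 84.8, 85.7 and 83.3 FPKM in control cells and 108, 107 and 105 after knockdown, and the 19 ligands to 21.7 ± 1.71 and 25.2 ± 1.10 (SD, n = 3). Longer transcripts read higher in the si-METTL3 libraries. Transcript length was taken for this from the ratio of deposited counts to FPKM. Per doubling of that length the log2 level shifted by -0.12, 0.02 and -0.14 in control libraries and by 0.04, 0.08 and 0.11 in knockdown libraries. In GENCODE, the longest coding transcripts of the 9 changed genes had a median of 5060 bases against 3202.5 over all tested genes with one. With a length term for each library in the edgeR fit, 5 members were higher and 1 lower, beside 6.9% and 10.1% of all tested genes. Lrp5 came to 0.05 (adjusted p = 0.778), Fzd4 to 0.09 (0.525) and Fzd2 to 0.41 (0.0826), while Wnt4 (1.00), Lgr4 (0.57), Ror1 (0.47), Lrp6 (0.46), Fzd7 (0.43) and Ror2 (-0.50) kept their calls. Neither limma fit of the FPKM called Fzd4 or Ror2, and the edgeR fit without a filter on low counts did not call Fzd4 (adjusted p = 0.0561) or Lrp5 (0.0571). The edgeR fit with a replicate block called only Wnt4, Fzd7, Lgr4 and Ror1, beside 4.3% higher and 5.43% lower of all tested genes. Lrp6 lost its call there (adjusted p = 0.0646), as did Fzd2, Fzd4, Lrp5 and Ror2.

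**Figure D4:**
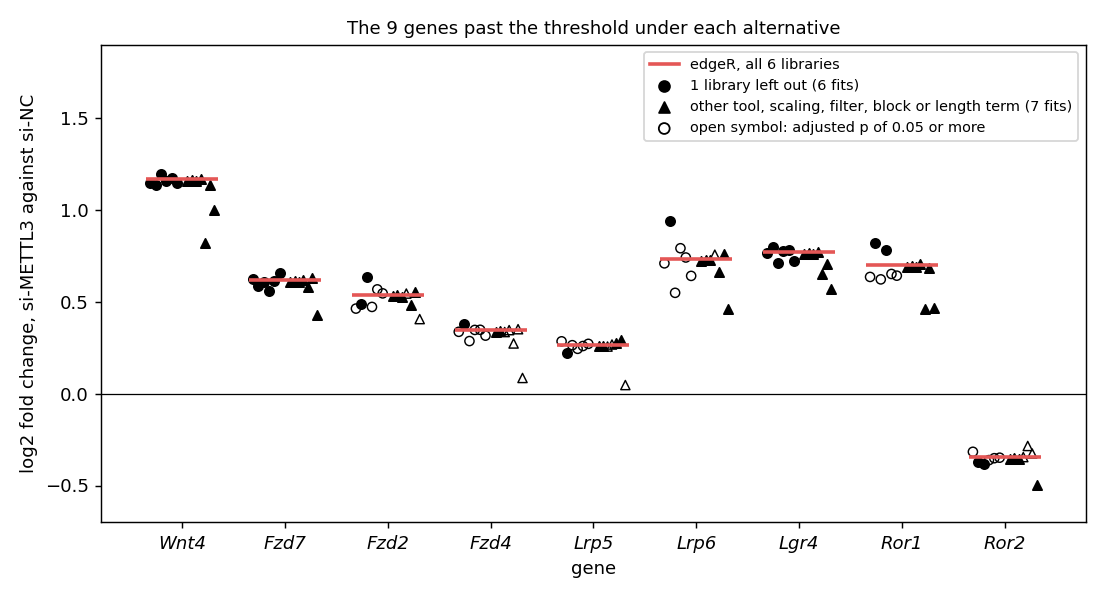
Log2 fold changes of the 9 changed genes in the edgeR fit of all 6 libraries (red bar), in 6 fits that each leave out 1 library (circles) and in 7 fits with another tool, scaling, filter, replicate block or length term (triangles), with open symbols for an adjusted p of 0.05 or more. Wnt4, Fzd7 and Lgr4 have filled symbols throughout, and Lrp5 falls to 0.05 with the length term.

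Of the 8 antagonists only Sfrp4 was read at more than a trace. It stood at 4.35 FPKM in si-NC and 5.23 in si-METTL3, beside 4.87 and 3.85 for Wnt9a, with 9.89, 9.82 and 10.5 CPM in control cells and 11.4, 13.1 and 13.1 after knockdown, and did not pass (0.31, interval 0.06 to 0.56, edgeR adjusted p = 0.0834). Dkk3, a divergent DKK member, had 2, 9 and 20 counts in control cells and 26, 20 and 18 after knockdown (1.41, interval -0.06 to 2.89, adjusted p = 0.153). Sfrp1, too low to test, had 0, 0 and 5 counts in control cells and 6, 5 and 1 after knockdown. Both had more reads in si-NC replicate 3 than in the other si-NC libraries, which is also where the lung and blood markers were higher. Dkk3 was lowest in si-NC replicate 1, where the brain marker Camk2a had 0 counts. The part of those markers in these counts was not tested.

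Axin2, a scaffold of the destruction complex that beta-catenin itself induces and a usual readout of the pathway, had 21.01, 19.1 and 22.9 CPM in control cells and 19.8, 20.6 and 20.7 after knockdown. The groups overlapped. Its log2 fold change of -0.05 had an interval from -0.27 to 0.18 (edgeR adjusted p = 0.766).

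Of 118 further pathway genes, listed by textbook membership, 97 were tested, and 10 were higher and 9 lower, a share close to the 8.67% and 10.2% of all tested genes. The counts of the lists below are read against the same shares, and they are a description of the genes that moved rather than of their arms. In the beta-catenin arm, 4 of 35 rose and 1 fell. Ctnnb1, which encodes beta-catenin, went from 709 ± 38.4 to 977 ± 21.4 CPM (SD, n = 3), with a log2 change of 0.46 (SE 0.07, edgeR adjusted p = 0.00601), with every si-METTL3 library above every si-NC library. Fbxw11, a subunit of the ubiquitin ligase that marks beta-catenin for destruction, went from 177 ± 11.8 to 119 ± 4.94 CPM (-0.57, SE 0.08, edgeR adjusted p = 0.00488). The beta-catenin partners Bcl9 (0.40, adjusted p = 0.0219) and Bcl9l (0.33, 0.022) and the destruction complex member Amer1 (0.37, 0.0491) were also higher.

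In the polarity and calcium arm 3 of 24 rose and none fell, beside 8.67% higher and 10.2% lower of all tested genes. The 3 were Prkca, a calcium-dependent kinase (62.2 to 93.2 CPM, 0.58, edgeR adjusted p = 0.0107), the phospholipase Plcb3 (40.9 to 60.2 CPM, 0.56, 0.00506) and the core polarity gene Vangl2 (0.46, 0.0328). Among 18 secretion and surface genes, the Wnt7 co-receptor Adgra2 (0.78, adjusted p = 0.036) and Igfbp4 (0.33, 0.0274) rose and Apcdd1, a surface inhibitor, fell (-0.52, 0.0155).

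Among genes known as beta-catenin targets, 7 of 20 were lower and 1 higher, beside 10.2% and 8.67% of all tested genes. The list's median log2 fold change was -0.03, with 9 genes above 0 and 11 below. Ccnd1, the cyclin of G1, had 296, 241 and 285 CPM in control cells and 148, 135 and 146 after knockdown (-0.94, SE 0.09, edgeR adjusted p = 0.00176). Myc had 227, 213 and 235 CPM in control cells and 142, 148 and 135 after knockdown (-0.67, SE 0.07, adjusted p = 0.00202). Fosl1, an AP-1 subunit, went from 8.71 ± 1.42 to 3.41 ± 0.601 CPM (-1.35, SE 0.19, adjusted p = 0.00554). Birc5 (-0.41), Jun (-0.38), Cd44 (-0.26) and Vegfa (-0.24) were lower too. The 1 gene called higher was Ccn4, a secreted matricellular protein first described as Wnt-induced. It went from 340 ± 31.7 to 516 ± 25.1 CPM (0.60, SE 0.09, edgeR adjusted p = 0.00601). The groups did not overlap in CPM for 5 higher and 8 lower targets, beside 20.2% and 21.3% of all tested genes. Of these, Nkd1 (2.26, edgeR adjusted p = 0.0758, 0 to 24 counts per library), Dact3 (0.83, 0.113), Dact2 (0.41, 0.166) and Sox9 (0.18, 0.32) were higher without passing. Twist1 (-0.25, 0.187) was lower without passing. Ccnd1, Myc, Fosl1 and Jun are known to answer growth factor signals as well as beta-catenin. The part of either in these changes was not tested.

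Of the 19 further genes past the threshold, Ctnnb1, Fbxw11, Plcb3, Ccn4, Fosl1, Ccnd1 and Myc passed in each of the 13 alternative fits. The other 12 passed without si-NC replicate 2, and each lost its call when control replicate 1 or knockdown replicate 2 or 3 was left out. The number higher ranged from 3 to 21 and the number lower from 4 to 12 when 1 library was left out, with 21 and 12 both reached without si-NC replicate 2. Among all tested genes the shares in these fits ranged as widely, from 2.36% to 17.9% higher and from 2.63% to 18.9% lower. Their upper ends were also reached without si-NC replicate 2. With the length term Amer1 came to 0.08 (adjusted p = 0.513).

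**Figure D5:**
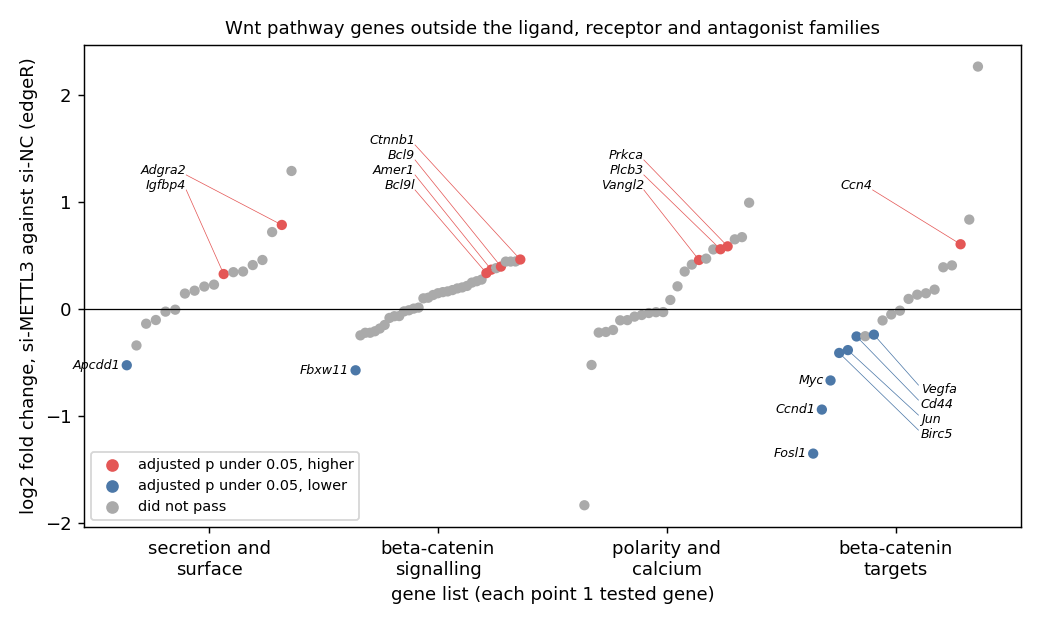
Log2 fold changes (edgeR, si-METTL3 against si-NC) of the 97 tested pathway genes outside the family, 1 point per gene, ordered within each list, with red and blue for those past the threshold. Ctnnb1 at 0.46 and Fbxw11 at -0.57 stand in the beta-catenin list, and 7 of the 8 coloured target genes lie below 0.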

How the data were processed

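Per the file headers, the authors deposited whole-number counts and FPKM values per gene and library, group mean FPKM, a log2 fold change and p-values with adjusted p-values. The submitters' processing notes name the build mm9 and the tools RSEM, StringTie, Bowtie2 and fastp, without versions or roles. The sources used here do not give the division of reads between paralogs, overlapping genes or strands. If RSEM made the deposited counts, they are rounded estimates.

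Groups and replicate numbers came from the sample titles. The whole mRNA table of counts was fitted in R 4.3.3 by edgeR 4.0.16 (normalized by TMM and filtered by filterByExpr, quasi-likelihood fit of the group, Benjamini-Hochberg over all tested genes, threshold 0.05). CPM are counts scaled to the effective library size, or for marker sums to the library total. Each SE is the log2 change over the root of its F statistic, and intervals are 95%. Alternatives were DESeq2 1.42.0, RLE normalization, no filter, a replicate block, limma 3.58.1 on log2(FPKM + 1) and log2(FPKM + 0.1) for genes with a mean FPKM of 0.1 or more, a transcript length term, and leaving out each library. The length in that term came from the ratio of deposited counts to FPKM. The edgeR fit was tested on simulated data, where it found most of the largest changes, missed most of the smallest, and made false calls above the nominal rate. With 3 libraries a group an exact permutation test of 1 value cannot give a p under 0.1, so none was run.

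Every member was named, with values per library for those that passed. Of the other pathway genes the 4 largest called rises and falls per list were named. Jun, Cd44, Vegfa, Nkd1, Dact2, Dact3, Sox9 and Twist1 were added after their values were seen. The members and lists were chosen with earlier results of these data known. Positions and transcripts come from GENCODE M21 (GRCm38), and no coordinate was converted between builds.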

Additional observations from a re-analysis of the deposited data

How the results depend on the processing

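Beside 8 higher and 1 lower members, DESeq2 (background 9.71% and 11.6%) and RLE normalization (8.94% and 11.4%) gave the same numbers, and the fit without a filter 6 and 1 (5.59% and 7.09%). The fit with a replicate block gave 4 and 0 (4.3% and 5.43%), the length term 5 and 1, and limma 7 and 0 on log2(FPKM + 1) (8.37% and 9.34%) and on log2(FPKM + 0.1) (8.14% and 9.25%). Leaving out 1 library gave 3 to 9 higher (background 2.36% to 17.9%) and 0 to 2 lower (2.63% to 18.9%), the upper ends without si-NC replicate 2. Wnt4, Fzd7 and Lgr4 passed in all 13 alternatives. The median of the members was 0.17 with limma on log2(FPKM + 1), 0.13 with the length term (all genes 0.01), and 0.25 to 0.33 with 1 library left out. Among the further pathway genes the replicate block gave 4 higher and 6 lower, and leaving out 1 library 3 to 21 and 4 to 12. These are read against the background shares given above for the same fits. The labels do not say whether replicate numbers pair the libraries. Same-numbered libraries had deviations correlated at 0.07, 0.20 and -0.31, and the other pairs at -0.40 to 0.34. With 3 libraries a group these correlations cannot tell whether cultures were paired. Directions turned only for genes that did not pass: Fzd1 (-0.00398 with DESeq2, -0.00569 without a filter, -0.16 with the length term, -0.0600 to 0.0264 with 1 library left out), Fzd6 (-0.0595 with the length term, -0.0140 to 0.0963 with 1 left out), Fzd3 (-0.0525 with the length term) and Wnt7b (-0.265 to 0.00549 with 1 left out). The cause was not tested. Depth left 17 members untested.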

Other observations

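The separate lncRNA table, which the comparisons above do not use, lists 17 noncoding transcripts of 11 Wnt family genes, and 2 of them reached 100 counts over the 6 libraries. A processed transcript of Wnt5a had 78, 74 and 118 counts in control cells and 143, 41 and 127 after knockdown. A processed transcript of Lgr4 had 17, 26 and 18 counts in control cells and 23, 14 and 4 after knockdown. The groups overlapped for both, although the Lgr4 gene itself rose in the mRNA table. These transcripts were not tested.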
